A study of Homo sapiens with 4 samples.

Results

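The genes described here are the 4 factors of the MiT family (MITF, TFEB, TFE3 and TFEC) and 6 genes of pigment cells (TYRP1, TYR, DCT, PMEL, MLANA and OCA2), 10 of the 28775 genes counted in the series. They were selected on measured values in part. TFEC and TYRP1 were chosen because they had the largest differences between MORC2 knock-out and wild-type cells in these same samples, so their values are given as a description with no test. The other 8 genes were listed because they belong to the same family or serve the same cell type, not for their own values. Earlier results of these data were known when they were listed. Poly(A) RNA was sequenced from 4 samples of HEK293T, a transformed human embryonic kidney line. The 2 MORC2 KO samples were made by electroporating Cas9 protein with a guide RNA against MORC2, guide RNA 1 for replicate 1 and guide RNA 2 for replicate 2, and the edited cells were kept as bulk pools rather than single clones. The 2 WT samples were cultures of the unedited line, and the labels give no further treatment in either group. Reads assigned to genes numbered 59803625 and 64312514 in the KO replicates 1 and 2, and 60331708 and 53970043 in the WT replicates 1 and 2.

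MORC2 is an ATPase of the MORC family that takes part in gene silencing and chromatin compaction. The MiT factors are basic helix-loop-helix leucine zipper proteins that bind short palindromic DNA motifs (E-boxes) as dimers with one another. MITF is the master regulator of melanocytes, the pigment cells of skin and hair, where it drives the enzymes of melanin synthesis. TFEB and TFE3 are held in the cytoplasm of well-fed cells and enter the nucleus on starvation to switch on lysosome and autophagy genes, while TFEC is best known from macrophages, osteoclasts and retinal pigment epithelium. TYR, TYRP1 and DCT are related melanosomal enzymes, PMEL forms the fibrils on which melanin is laid down, MLANA is a melanosomal membrane protein and OCA2 a melanosomal chloride channel. A kidney line such as HEK293T is not a pigment cell.

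The promoters of the genes that the results turn on are shown because the MiT factors are known to read E-box letters there. RefSeq promoter windows of 300 bases (250 before and 50 after an annotated start, build GRCh38.p14) existed for 9 of the 10 genes, 15 windows in all, and PMEL had none. An E-box of the letters CACGTG was searched on both strands of every window. The pigment cell form with the letters CATGTG was searched in the same way. A longer form that adds a base in front, giving the letters TCATGTG, was not planned and was added to the search. Each of its matches is also a match of the shorter form. The 250 bases before the start are printed in the direction of transcription, with each match to any of these letters, on either strand, in capitals. TYRP1 lay at chr9:12693135-12693384 on the plus strand, TYR at chr11:89177625-89177874 on the plus strand, the downstream start of DCT at chr13:94479683-94479932 on the minus strand, and the upstream and downstream starts of TFEC at chr7:116030764-116031013 and chr7:115968310-115968559 on the minus strand.
TYRP1: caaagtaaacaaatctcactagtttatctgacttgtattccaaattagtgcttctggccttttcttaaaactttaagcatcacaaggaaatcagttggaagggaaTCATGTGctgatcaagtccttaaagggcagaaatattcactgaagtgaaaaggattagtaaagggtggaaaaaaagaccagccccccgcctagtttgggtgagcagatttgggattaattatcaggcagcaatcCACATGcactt
TYR: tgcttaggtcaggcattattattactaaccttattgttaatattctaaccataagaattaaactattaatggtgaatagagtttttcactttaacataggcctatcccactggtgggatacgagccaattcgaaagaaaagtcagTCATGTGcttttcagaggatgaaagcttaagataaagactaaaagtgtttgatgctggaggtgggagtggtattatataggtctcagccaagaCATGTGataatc
DCT: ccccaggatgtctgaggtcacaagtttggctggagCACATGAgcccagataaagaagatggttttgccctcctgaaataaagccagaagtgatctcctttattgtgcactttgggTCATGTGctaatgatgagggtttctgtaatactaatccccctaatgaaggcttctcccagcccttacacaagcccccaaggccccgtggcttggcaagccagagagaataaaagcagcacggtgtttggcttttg
TFEC upstream start: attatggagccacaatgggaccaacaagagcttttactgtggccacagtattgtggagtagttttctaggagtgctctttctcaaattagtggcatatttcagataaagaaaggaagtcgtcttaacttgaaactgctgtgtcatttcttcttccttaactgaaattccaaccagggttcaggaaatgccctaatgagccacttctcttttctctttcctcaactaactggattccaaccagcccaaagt
TFEC downstream start: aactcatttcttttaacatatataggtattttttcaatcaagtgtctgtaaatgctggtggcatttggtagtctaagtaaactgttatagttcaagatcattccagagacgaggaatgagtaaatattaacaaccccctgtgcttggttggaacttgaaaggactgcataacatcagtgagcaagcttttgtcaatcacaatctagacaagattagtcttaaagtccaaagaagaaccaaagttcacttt

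TCATGTG began 145 bases before the start of TYRP1 and 105 bases before that of TYR. Each of these windows also held the shorter form alone, 11 bases before the start of TYRP1 on the other strand and 12 bases before that of TYR. In DCT the longer form began 135 bases before the start and again, on the other strand, 215 bases before it. OCA2 held CATGTG alone, 153 bases before its start. Neither TFEC window held any of these letters. Of the 35116 promoter windows of the whole table, 7.26% held the first form, 11.1% the pigment cell form and 2.92% its longer form, against 0, 4 and 3 of the 15 windows of these genes. A match describes letters and not binding, and the gene-level counts do not tell which start was used.

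The MORC2 transcript itself was read first, to check the labels. MORC2 (gene ID 22880, T2T-CHM13v2.0 chr22:31388696-31432332, minus strand) had 3064 and 3637 reads in the KO replicates and 5131 and 4669 in the WT replicates. Both KO samples were below both WT samples, at 53.1 ± 2.69 against 87.0 ± 1.06 CPM (reads per 1000000 of the effective library size, mean ± SD, n = 2 per group). MORC2 fell by 0.71 on the log2 scale (SE 0.06, edgeR quasi-likelihood F-test, Benjamini-Hochberg adjusted p = 1.37e-04). The KO level was 61.1% of the WT level. Of its exonic bases, 23.3% are shared with the antisense gene MORC2-AS1. The counting ignored strand, and reads overlapping both genes were dropped. In bulk RNA, fewer cells that express a gene and less RNA per cell cannot be told apart, which holds for every value below. Positions of gene bodies are all on T2T-CHM13v2.0, as in the counted table, and are not comparable with the promoter positions above. Across all 16675 genes tested, 98 (0.588%) were called higher in MORC2 KO and 5 (0.03%) lower, at an adjusted p below 0.05.

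TFEC (gene ID 22797, T2T-CHM13v2.0 chr7:117250129-117345765, minus strand, 9 exons) was counted at 158 and 206 reads in KO replicates 1 and 2, and at 29 and 19 reads in WT replicates 1 and 2. In CPM these were 2.64 and 3.12 against 0.487 and 0.357. Both KO samples were far above both WT samples, and the second guide RNA gave the higher value. The group means were 2.88 ± 0.336 and 0.422 ± 0.0922 CPM (SD, n = 2), a 6.82-fold difference or 2.76 on the log2 scale. Per kilobase of exon, the level of TFEC stood at the 2.91 percentile of the tested genes in WT and at the 17.9 percentile in MORC2 KO. Hence the largest fitted log2 difference among the 16675 genes that passed the filter on low counts was seen in a transcript that was scarce in WT cells and remained among the less abundant ones in KO cells.

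TYRP1 (gene ID 7306, T2T-CHM13v2.0 chr9:12702721-12719618, plus strand, 8 exons) encodes a melanosomal enzyme that stabilises tyrosinase. It was counted at 88 and 136 reads in the KO replicates, and at 22 and 18 reads in the WT replicates. In CPM these were 1.47 and 2.06 against 0.370 and 0.338. As for TFEC, both KO samples stood above both WT samples and replicate 2 was the higher KO sample. The group means were 1.77 ± 0.415 and 0.354 ± 0.0223 CPM (SD, n = 2), which is 4.99-fold or 2.31 on the log2 scale. Its level per kilobase of exon went from the 7.18 percentile of tested genes in WT to the 21.8 percentile in MORC2 KO. The genes just below TYRP1 in log2 difference were the long non-coding RNAs LOC101929762 at 2.21 and AHI1-DT at 2.20, both with at most 23 reads in any sample, and then the heparan sulphate enzyme NDST3 at 2.04. TFEC, TYRP1 and these 3 were among 6 tested genes with a log2 difference above 2. Among genes called by the test, the nearest below TYRP1 were ITIH6 at 2.00, MIR3171HG at 1.90 and ZNF22-AS1 at 1.90.

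**Figure D1:**
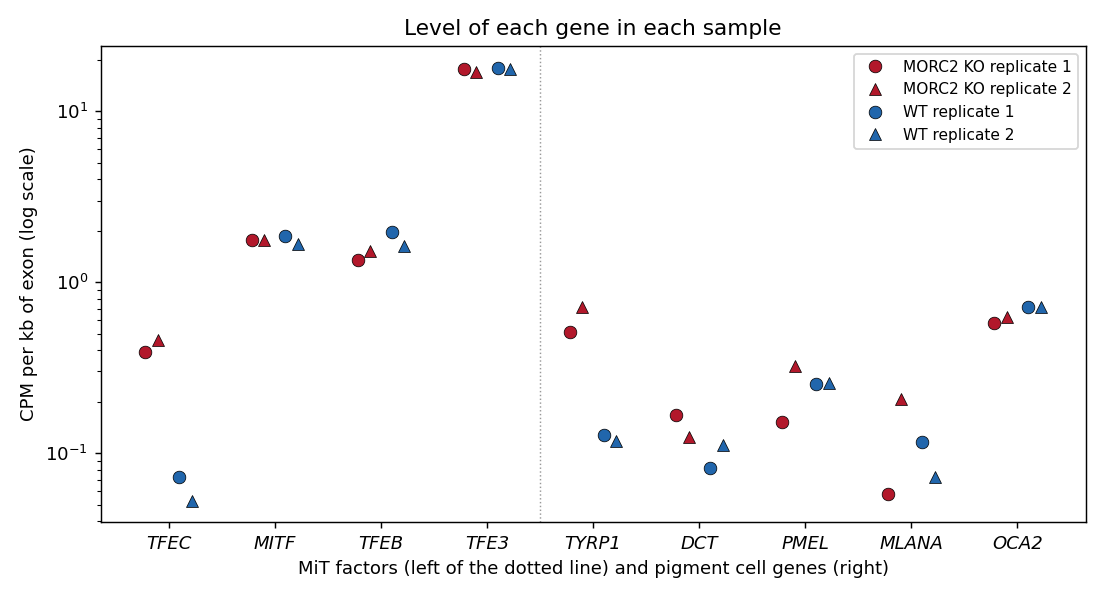
Level of each gene in each sample, in CPM per kilobase of exon on a log axis, with MORC2 KO in red and WT in blue. Circles are replicate 1 and triangles replicate 2. TYR, with 0 reads in every sample, is not drawn. TFEC and TYRP1 separate by group, while MITF, PMEL and MLANA overlap and TFE3 lies far above all others with group means of 17.3 and 17.8 CPM per kb.

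The other MiT factors were present in every sample and none was called. MITF (gene ID 4286, chr3:69776362-70005284, plus strand) had 661 and 731 reads in the KO replicates and 700 and 560 in the WT replicates, or 11.1 and 11.1 against 11.8 and 10.5 CPM. The groups overlapped, and the log2 difference was -0.01 (SE 0.09, adjusted p = 0.968). The gene-level count sums all MITF isoforms, including the melanocyte form that starts from its own promoter.

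TFEB (gene ID 7942, chr6:41512540-41564779, minus strand), the chief regulator of lysosome genes, had 223 and 278 reads in the KO replicates and 324 and 240 in the WT replicates. In CPM these were 3.73 and 4.21 against 5.44 and 4.51, so that both KO samples lay below both WT samples by a narrow margin. The log2 difference was -0.33 (SE 0.14), with an adjusted p of 0.326 in edgeR's test, and the difference was -0.18 without WT replicate 1. TFE3 (gene ID 7030, chrX:48440314-48454961, minus strand), which shares most of its known targets with TFEB, had 3455 and 3691 reads against 3521 and 3096. At 57.8 and 55.9 CPM in the KO replicates and 59.2 and 58.2 in the WT replicates its groups did not overlap, yet the log2 difference was only -0.05 (SE 0.06, adjusted p = 0.739).

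Per kilobase of exon, TFE3 was the main MiT transcript of these cells and TFEC the least. The summed level of the family was 21.0 and 20.7 CPM per kb in the KO replicates and 21.9 and 21.0 in the WT replicates. TFE3 made up 83.4% and 82.0% of that sum in the KO replicates and 82.2% and 84.1% in the WT replicates. The share of TFEC was 1.85% and 2.22% in the KO replicates against 0.329% and 0.251% in WT. MITF held between 7.96% and 8.55% in all samples, and TFEB 6.37% and 7.31% in the KO replicates against 8.95% and 7.72% in WT. TFEC was thus the smallest part of the family transcript pool in both groups.

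Among the pigment cell genes apart from TYRP1, none was called and TYR was silent. TYR (gene ID 7299, chr11:89097534-89215415, plus strand), the rate-limiting enzyme of melanin synthesis, had 0 reads in all 4 samples. By a limit of 3 reads per library, its level was at most 0.0502 and 0.0454 CPM in the KO replicates and 0.0504 and 0.0564 CPM in the WT replicates, which covers counting error only. It was removed by the filter on low counts and not tested.

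DCT (gene ID 1638, chr13:93640358-93752911, minus strand), the dopachrome tautomerase that acts after tyrosinase, had 57 and 47 reads in the KO replicates and 28 and 34 in the WT replicates. In CPM these were 0.953 and 0.711 against 0.471 and 0.639. Both KO samples were above both WT samples, but the difference of 0.59 on the log2 scale did not pass the test (SE 0.31, adjusted p = 0.400). It was 0.35 without KO replicate 1 and 0.37 without WT replicate 1. PMEL (gene ID 6490, chr12:55921167-55933772, minus strand) had 20 and 47 reads against 33 and 30. Its KO samples lay on either side of WT, at 0.334 and 0.711 against 0.555 and 0.564 CPM, with a log2 difference of -0.08 (SE 0.38, adjusted p = 0.943).

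MLANA (gene ID 2315, chr9:5896039-5915758, plus strand), an antigen used to mark melanocytes, had 8 and 32 reads in the KO replicates and 16 and 9 in the WT replicates. The highest and the lowest value, 0.484 and 0.134 CPM, were both KO samples, and the log2 difference of 0.51 had an SE of 0.57 (adjusted p = 0.706). Without KO replicate 2 the difference was -0.71, and without KO replicate 1 that of PMEL was 0.33. OCA2 (gene ID 4948, chr15:25497259-25841842, minus strand) had 108 and 129 reads against 134 and 120. At 1.81 and 1.95 CPM in the KO replicates and 2.25 CPM in each WT replicate the groups did not overlap, and the log2 difference was -0.26 (SE 0.18, adjusted p = 0.509).

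**Figure D2:**
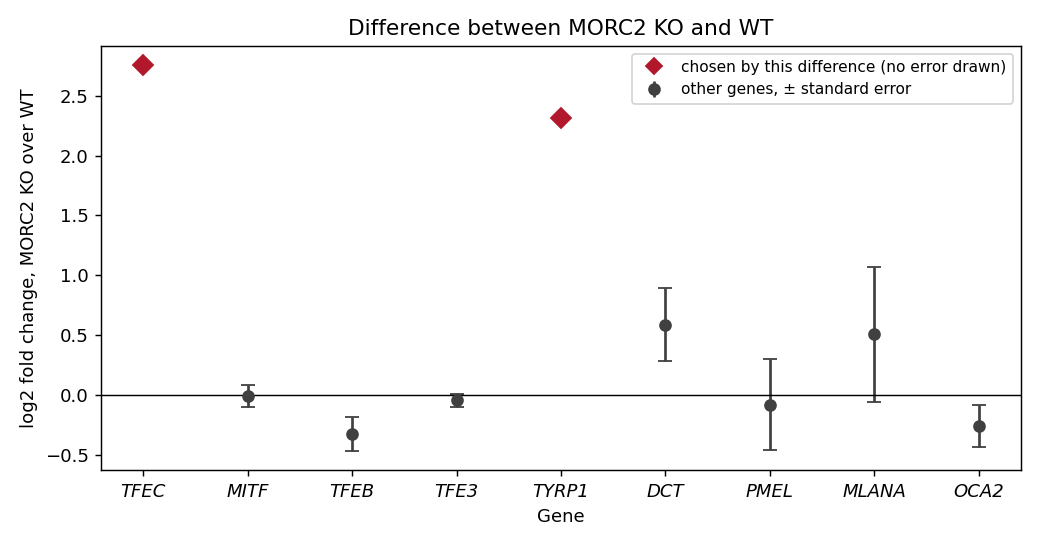
Log2 fold change of MORC2 KO over WT for the 9 genes that passed the filter on low counts, with bars of ± 1 standard error of the edgeR fit for the 7 genes not chosen by this difference. TFEC at 2.76 and TYRP1 at 2.31 (diamonds, no error drawn) stand above the others, which range from -0.33 for TFEB to 0.59 for DCT.

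In all, 9 of the 10 genes passed the filter. TFEC and TYRP1 had both KO samples above both WT samples, as their selection fixed. Of the 7 other tested genes, DCT alone had both KO samples above, against 24.1% of all tested genes. TFEB, TFE3 and OCA2 had both below, against 23.4% of all tested genes, and MITF, PMEL and MLANA overlapped. None of these 7 was called by edgeR. TFEB alone was at an unadjusted p below 0.05, where 8.14% of all tested genes were higher and 6.17% lower. Against a background of 0.588% called higher and 0.03% lower, 0 of 7 does not set these genes apart.

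The order of mean levels per kilobase differed between the groups below TFE3. In WT it was TFE3 (17.8 CPM per kb), TFEB (1.79), MITF (1.77), OCA2 (0.717), PMEL (0.254), TYRP1 (0.122), DCT (0.0968), MLANA (0.0941), TFEC (0.0623) and TYR (0). The neighbours TFEB and MITF overlapped between samples in WT, as did DCT and MLANA. In MORC2 KO it was TFE3 (17.3), MITF (1.76), TFEB (1.43), TYRP1 (0.611), OCA2 (0.598), TFEC (0.425), PMEL (0.238), DCT (0.145), MLANA (0.133) and TYR (0). TYRP1 overlapped OCA2 between KO samples, and PMEL, DCT and MLANA overlapped in a chain. TYR was silent, and DCT, PMEL and MLANA were near silent, below 1 CPM in every sample. By the same measure TFEC and TYRP1 were near silent in WT, below 1 CPM, and lay between 1.47 and 3.12 CPM in MORC2 KO.

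The genomic surroundings of TFEC and TYRP1 were compared next, since both stood apart from the other genes of their group. Within 1 Mb of the TFEC gene body lay 15 other annotated genes, 8 of them tested, of which 1 was called higher and none lower, against 0.588% and 0.03% of all tested genes. The called gene was MET (chr7:117987305-118113574, plus strand), the receptor of hepatocyte growth factor, at 641.5 kb from TFEC. It had 2454 and 2831 reads in the KO replicates against 1724 and 1519 in WT, which is 41.9 ± 1.28 against 28.8 ± 0.306 CPM (SD, n = 2). The KO samples were both higher, and the difference of 0.54 on the log2 scale passed the test (SE 0.06, adjusted p = 8.97e-04).

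Genes closer to TFEC than MET were not called. TES, a focal adhesion protein at 179.8 kb, had 3232 and 3623 reads against 2837 and 2578, with both KO samples higher, as in 24.1% of all tested genes, and a log2 difference of 0.18 (SE 0.06, adjusted p = 0.216). The caveolin genes CAV2 and CAV1 had log2 differences of 0.03 and -0.05. Farther off, CAPZA2 was at -0.05, ST7 at -0.11, ST7-AS1 at -0.09 and, on the other side of TFEC, MDFIC at -0.04, all without a call. ST7-OT4 held 15 reads in all and was not tested. ST7 and ST7-AS1 overlap each other in part of their exons, so their counts are less certain.

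Within 1 Mb of TYRP1 lay 5 other genes, 3 of them tested and none called. LURAP1L-AS1, a non-coding RNA on the opposite strand whose gene body overlaps the 3′ part of that of TYRP1, had 20 and 36 reads in the KO replicates and 13 and 20 in the WT replicates. Its groups overlapped, and the log2 difference was 0.59 (SE 0.42, adjusted p = 0.537). It shared 0% of its exonic bases with TYRP1. LURAP1L, at 64.7 kb, was at 0.28 and the tight junction gene MPDZ, at 395.4 kb, at 0.12 on the log2 scale, with both KO samples above both WT samples in each case, again as in 24.1% of all tested genes, and adjusted p = 0.504 and 0.409.

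**Figure D3:**
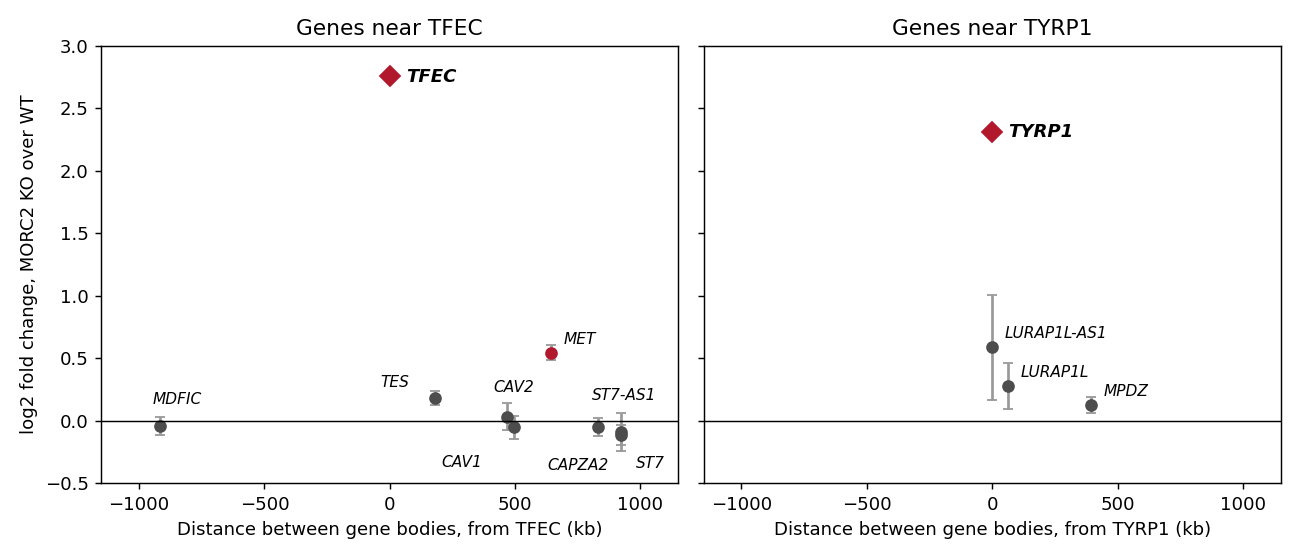
Log2 fold change of MORC2 KO over WT for the tested genes within 1 Mb of TFEC and of TYRP1, against the distance between gene bodies in kb (positive toward higher coordinates), with bars of ± 1 standard error. TFEC and TYRP1 (diamonds, no error drawn) stand at 2.76 and 2.31. MET at 0.54 is the one neighbour called (red), and the others lie between -0.11 and 0.59.

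By likeness of pattern, measured as the Euclidean distance between centred log2 CPM values over the 4 samples, the nearest gene to TFEC was TYRP1 at 0.560. Both were chosen for the step between groups that makes up most of this distance, so their closeness follows from the choice. ZNF22-AS1 followed at 0.854, then ITIH6 at 0.895, the protocadherin PCDHGA1 at 0.896 and LOC101929762 at 0.932. Exons of other genes in its cluster cover 34.5% of PCDHGA1. The nearest to TYRP1 were ITIH6 at 0.419, ZNF22-AS1 at 0.434, AHI1-DT at 0.451, TPRG1 at 0.501 and TCHH, a hair follicle structural protein, at 0.526. ITIH6 had 110 and 141 reads in KO against 27 and 29 in WT, and ZNF22-AS1 had 242 and 280 against 68 and 57. These genes shared the step between groups with TFEC and TYRP1, and 4 samples hold little more of a pattern than that step.

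Known partners and targets of the factors were read from lists chosen for function. These lists and those below were drawn up with earlier results of these data known. Among 48 lysosome and autophagy genes with known MiT binding sites, all tested, none was called in either direction by edgeR. The median log2 difference was -0.04 against 0.01 over all tested genes, and at an unadjusted p below 0.05 there were 3 higher and 4 lower, against 8.14% and 6.17% of all tested genes. The lysosomal enzymes NAGLU, with 1657 and 2067 reads against 1450 and 1360 and a log2 difference of 0.24 (adjusted p = 0.205), and CTSF at 0.23 (adjusted p = 0.299) had the largest differences. Without KO replicate 1, 16 genes of this list were called, when 1397 genes were called higher and 2117 lower across the table.

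Of 16 other genes known as MITF targets, 11 were tested and MET, described above, was the one called, with a median log2 difference of -0.01. Of all tested genes, 0.588% were called higher and 0.03% lower. The osteoclast protease CTSK was next in size at 0.48 (111 and 127 reads against 96 and 57, adjusted p = 0.347). Another list had 24 genes that hold MiT factors in the cytoplasm or release them (the Rag GTPases, Ragulator, mTORC1, folliculin, calcineurin and 14-3-3 proteins). All were tested, with a median of -0.07, and 1 was called higher and none lower, against 0.588% and 0.03% of all tested genes. That gene was RRAGA, the Rag GTPase A that tethers TFEB and mTORC1 to the lysosome. It had 4790 and 5157 reads in KO against 3405 and 3139 in WT. Both KO samples were higher, as in 24.1% of all tested genes, and the difference was 0.44 (SE 0.06, edgeR adjusted p = 2.48e-03). LAMTOR4, of the Ragulator complex, was at -0.24 (adjusted p = 0.232). None of the 19 other E-box leucine zipper factors tested was called, with a median of 0.04, and MLXIPL at 0.20 and MYCL at 0.17 differed most.

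Melanosome genes outside the 6 described gave 1 call, a higher one, where 0.588% of all tested genes were called higher and 0.03% lower. Of 9 other melanosome channels and receptors, 5 were tested and SLC7A11, the cystine transporter that feeds pheomelanin synthesis in melanocytes, was called higher, with a median of 0.05. It had 9827 and 14097 reads in the KO replicates against 7927 and 6385 in WT, with a log2 difference of 0.58 (SE 0.10, adjusted p = 0.0192). By DESeq2 its adjusted p was 0.188, and over 12 alternatives it ran from 3.83e-16 to 0.188. Without KO replicate 2 the difference was 0.38. TPCN2, a lysosomal cation channel, was at 0.13. Of 27 genes for melanosome assembly and transport, 25 were tested and none was called, with a median of -0.01, RAB27A being at -0.22 and RAB32 at 0.20. Of 13 regulators of the melanocyte lineage, 9 were tested and none was called, with a median of 0.05. The neural crest factor FOXD3 was at 0.38 (adjusted p = 0.146) and TFAP2A at 0.28 (adjusted p = 0.279).

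Markers of the cell types that normally hold TFEC or TYRP1 ranged from 0 reads to moderate levels. At most 10 reads in every sample were counted for 4 of 10 melanocyte markers, 6 of 10 markers of retinal pigment epithelium and 7 of 15 markers of macrophages and osteoclasts. Of the 10 melanocyte markers, 5 were tested and none was called (median 0.05). The tested markers were MC1R and the members MITF, DCT, PMEL and MLANA, whose values are given above. Markers described here for being at or near 0 were chosen after their values were seen. SOX10, the factor that switches on MITF in melanocytes, had 2 and 0 reads in KO and 2 and 0 in WT, TRPM1 had 1 and 4 against 0 and 0, and SLC24A5 0 and 0 against 0 and 1. The summed level of the list was 17.8 and 19.8 CPM in the KO replicates and 19.7 and 16.8 in the WT replicates. Most of this sum was MITF, at 11.1 and 11.1 CPM in the KO replicates and 11.8 and 10.5 in the WT replicates. Per kilobase the most abundant gene of the list was MC1R at 2.67 CPM per kb in WT (308 and 434 reads in KO, 388 and 253 in WT). PAX3, another regulator of MITF, was well expressed at 1356 and 1552 reads against 1290 and 1217, with overlapping groups.

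Of 10 markers of retinal pigment epithelium, 4 were tested and none was called (median 0.26). RPE65, its defining enzyme, had 4 and 1 reads against 3 and 2. The summed level was 8.93 and 11.2 CPM in KO and 8.57 and 8.55 in WT, with SERPINF1 the most abundant gene per kilobase. RDH5 was at 0.92 (38 and 47 reads against 19 and 21, adjusted p = 0.261), with 63.1% of its exonic bases shared with BLOC1S1-RDH5 and CD63, and BEST1 at 0.33.

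Of 15 markers of macrophages and osteoclasts, 6 were tested and none was called (median 0.23). PTPRC had 0 and 1 reads against 0 and 0, C1QA 0 in every sample, CSF1R 6 and 11 against 7 and 4, and CALCR, the calcitonin receptor of osteoclasts, 33 and 51 against 16 and 33 (log2 difference 0.60, adjusted p = 0.50). The summed level was 7.61 and 7.98 CPM in KO and 6.91 and 6.11 in WT, with CD68 the most abundant gene per kilobase (175 and 201 reads against 190 and 132). For the retinal and the macrophage lists both KO sums were above both WT sums. Of the single genes tested, 2 of 4 in the retinal list had both KO samples above both WT samples, and 0 had both below. In the macrophage list these were 2 of 6 and 0. Of all tested genes, 24.1% were above in this way and 23.4% below. The part of RNA of such cell types in the differences of TFEC and TYRP1 was not tested. Of 8 genes known in HEK293 cells, all were tested and none was called (median -0.03), among them NEFM at 0.44 (adjusted p = 0.118) and KRT18 at -0.15, and VIM was the most abundant with 34972 and 36603 reads against 32571 and 30597.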

How the data were processed

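RNA from 2 MORC2 KO and 2 WT cultures was compared. The deposited table holds raw read counts per gene that the authors made with featureCounts 2.0.6 on T2T-CHM13v2.0, without strand, with multi-mapping reads kept and reads overlapping several genes dropped; 0 sample columns were left unused. CPM per kb used the exonic length column of the authors' table, a value of another unit. Symbols were matched by gene ID to RefSeq for 28763 of 28775 genes. In R 4.3.3 with edgeR 4.0.16, genes were filtered with filterByExpr, scaled by TMM (factors 0.986 to 1.03) and tested by quasi-likelihood F-tests in their legacy form, as in the study, at a Benjamini-Hochberg adjusted p of 0.05. Biological variation between replicates was 5.33% (coefficient of variation), and p-values measure only the spread between these samples. The members and lists were chosen with earlier results of these data known. Named genes were the 10 members, called list genes and the 2 largest differences per list, genes within 1 Mb of TFEC and TYRP1 with at least 10 reads, and the 5 nearest in pattern to each; SOX10, TRPM1, SLC24A5, PAX3, RPE65, PTPRC, C1QA, CSF1R, MC1R, SERPINF1, CD68, VIM, NDST3 and MIR3171HG were named after their values were seen. DESeq2 1.42.0, other scalings and filters, a replicate block and leaving out each sample were the alternatives. The code was tested on simulated counts.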

Additional observations from a re-analysis of the deposited data

How the results depend on the processing

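Of 181 values recomputed under alternatives, 159 held, which for a tested gene means the same sign and side of the threshold whatever the size of the shift, for TFEC and TYRP1 a shift below the spread between replicates, and for a count of calls a value within 1.5 times. Another 17 moved further, 4 changed sign and 1 lost its call. The number of calls was less stable than the members' values. Genes called higher numbered 463 without a filter on low counts, 237 with a replicate block and 88 to 1397 when each sample was left out in turn (149 without WT replicate 1), against 98. Genes called lower numbered 182 without the filter, 42 with the block, 17 by DESeq2 and 9 to 2117 leaving out samples, against 5. Same-numbered samples deviated from their group means in weakly opposite ways (correlation -0.124 over the tested genes). A crossed pairing, chosen after seeing the data, gave 903 higher and 809 lower. The labels do not say that samples of the same number pair, and a weak correlation drawn from 4 samples does not decide it. The block by number changed no call of the 7 tested members other than TFEC and TYRP1, nor of MET, SLC7A11 and RRAGA. The crossed pairing refitted every gene, but its values for single genes are not given here. Lysosome genes called numbered 1 without the filter and 0 to 16 leaving out samples, 16 being without KO replicate 1. Leaving out samples, where a lone sample is assumed to vary like the other group, the log2 difference of TFEC ranged from 2.56 to 3.01, TYRP1 from 2.05 to 2.52, MITF from -0.089 to 0.071, TFEB from -0.45 to -0.18, DCT from 0.35 to 0.82, SLC7A11 from 0.38 to 0.74, PMEL from -0.74 to 0.33 (0.33 without KO replicate 1) and MLANA from -0.71 to 1.11. With library size alone the MITF difference was 0.028. By DESeq2 the SLC7A11 difference of 0.57 lost its call. MET stayed called under all 12 alternatives (0.51 to 0.58) and RRAGA likewise (0.41 to 0.48). These causes were not tested. TYR could be given no value in any fit, and MLANA none where at least 10 counts in every sample were asked. TYR, MLANA, PMEL and DCT had 57 reads or fewer in each sample, and counting error and spread between samples were not separated for them.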
